A study of Mus musculus with 75 samples.

Results

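Chromatin of nuclei sorted as leptin receptor (LepRb) positive was compared with that of the other nuclei of the hypothalamus in freely fed mice, which is the sort difference before any fast or leptin injection. The comparison used 8 libraries of the series' 75 samples: 2 GFP-positive and 2 GFP-negative libraries from fed mice in each of 2 assays, out of 32 libraries with signal values. Regions entered it when their normalised signal averaged 10 or more over the 4 Fed libraries of the assay. This kept 31179 of 48634 regions in the assay for open chromatin (64.1%) and 98238 of 126368 regions in the assay for histone acetylation (77.7%). Because the mean covered both sorts, a region with signal in 1 sort alone could enter through that sort.

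Leptin is a hormone released by fat tissue, and LepRb, the long form of its receptor, signals through JAK2 and STAT3 in several groups of hypothalamic neurons that govern feeding and energy use. ATAC-seq marks open chromatin by where a transposase can insert, mostly at promoters, enhancers and insulators. H3K27ac, acetylation of lysine 27 of histone H3, is carried by nucleosomes at active promoters and enhancers, and long stretches of it often cover genes that define a cell type.

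All mice, in every group, were LepRcre/+; SUN1-sfGFP/+ and were grown for at least 2 months before use. Cre from the leptin receptor gene switches on a green fluorescent tag of the nuclear envelope (SUN1-sfGFP), and flow cytometry separated tagged (GFP-positive) from untagged (GFP-negative) nuclei. The Fed group had food freely for 36 h. Its label reads "Fed - Saline", while the treatment protocol names no injection for it. The other groups were fasted for 36 h and injected with saline (Fast) or with leptin at a dose of 5 mg/kg, either at 34 h alone (Lep2) or at 12, 24 and 34 h (Lep24). They entered only to estimate the spread and to repeat the sort difference in other libraries. Hypothalami were pooled before sorting, and ChIP used 300000 to 540000 nuclei. The labels do not say whether replicates came from separate pools, so the p-values rest on a spread that may be technical and not one between animals. The tag marks every cell in which Cre acted, also earlier in life, so GFP-positive nuclei are a mixture of cell types, and GFP-negative nuclei are all remaining neurons, glia and vascular cells. In such mixtures, fewer nuclei of a type and less signal per nucleus cannot be told apart. Regions are given by mm9 position and were not paired with genes, so the sort was not checked against Lepr or against markers of neurons and glia.

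The libraries of fed mice were unevenly enriched in H3K27ac. Both replicate 1 libraries belong to 6 of the 16 H3K27ac libraries with summed mitochondrial signal above 5000, called weakly enriched here. Regions with dense signal exceeded sparse ones by 2.98 (GFP-positive) and 2.52 (GFP-negative) log2 units in replicate 1 and by 3.85 in both libraries of replicate 2. Mitochondrial regions held 0.0750% and 0.238% of the signal in replicate 1 and 0.0248% and 0.0203% in replicate 2. The 2 weakly enriched libraries therefore also differed from each other, the GFP-negative one being the weaker by both measures. The 2 replicates are given separately below. Across tested regions, Pearson's r of log2 signal between the replicates of a sort was 0.940 (GFP-positive) and 0.866 (GFP-negative) for H3K27ac, and 0.884 and 0.902 for ATAC. Between same-numbered libraries of the 2 sorts, r was 0.923 (replicate 1) and 0.937 (replicate 2) for H3K27ac, and 0.878 and 0.853 for ATAC. In H3K27ac both values exceeded r between the GFP-negative replicates. The sort differences of the 2 replicates correlated at only 0.29 in H3K27ac and 0.25 in ATAC. The deposited values are normalised signal without read counts, so the depth behind them is not given. They come in steps whose size differs between libraries. Up to a signal of 10, H3K27ac took 31 (GFP-positive) and 12 (GFP-negative) distinct values above 0 in replicate 1, and 7 and 5 in replicate 2. ATAC took 9 and 12 in replicate 1, and 6 and 7 in replicate 2. The libraries compared were therefore unequally resolved, and no depth was derived from these counts.

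H3K27ac differed between the sorts at 3589 regions (3.65%) when the 6 weakly enriched libraries had a term of their own in the fit. It was higher in GFP-positive nuclei at 1302 regions (1.33%) and lower at 2287 (2.33%), by limma on log2(signal + 1) at a Benjamini-Hochberg adjusted p under 0.05. The regions called lower moved further than those called higher. The lower regions had a median log2 difference of −0.97 in replicate 1 and −1.19 in replicate 2, and 62.1% of them differed at least 2-fold. The higher regions had medians of 0.91 and 0.66, and 28.2% differed at least 2-fold. All 3589 had the same sign in both replicates. Both GFP-positive libraries lay outside the range of both GFP-negative ones at 92.7% of the lower and 81.9% of the higher regions. The shares over all tested regions were 17.3% and 15.9%. The same Fed libraries chose the called regions, so their sign and separation follow largely from that choice and are no separate support. Over all tested regions, replicates shared the sign at 29107 lower (29.6%) and 29097 higher regions (29.6%). Both were at least 2-fold lower at 1212 regions (1.23%) and at least 2-fold higher at 303 (0.308%), and a gap of at least 2-fold between the sorts was seen at 515 lower (0.524%) and 106 higher regions (0.108%).

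These counts depend on how replicate 1 is treated. With group means alone, limma called 0 regions (0%) although 7774 (7.91%) had an unadjusted p under 0.05, against 18396 (18.7%) with the term. With the replicate number in place of the term, limma also called 0 (smallest adjusted p = 0.122, and 11540 regions at an unadjusted p under 0.05), which ends every call, those of the regions named below included. With the 6 weakly enriched libraries left out, 1 library remained on each side in Fed, and also in Lep2 and Lep24. The spread then came from the Fast libraries alone, so the calls of that fit rest on the spread of that group. The count with the term was 1157 without GFP-negative replicate 1, 626 without GFP-positive replicate 1, 844 without GFP-positive replicate 2, and 2449 without GFP-negative replicate 2, where the higher calls outnumbered the lower (1674 against 775).

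**Figure D1:**
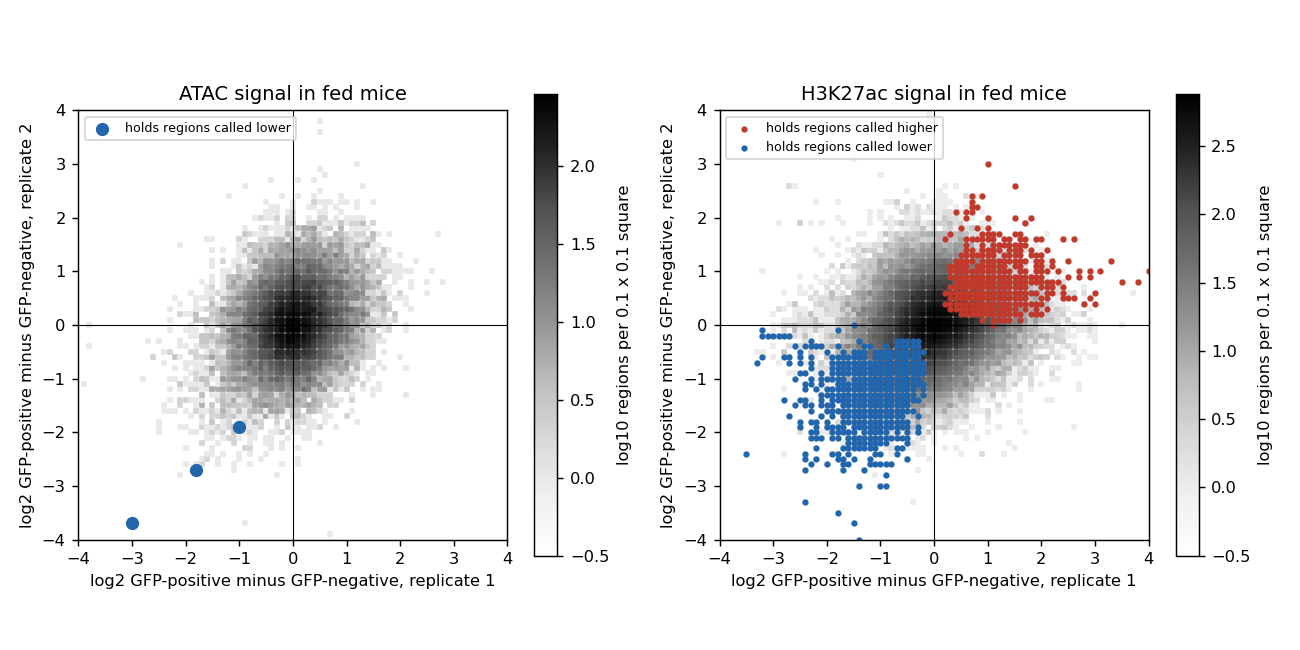
Each panel plots, for the regions tested in fed mice, the log2 difference in signal between GFP-positive and GFP-negative nuclei in replicate 1 (horizontal) against replicate 2 (vertical), with grey shades for log10 of the number of regions per square of 0.1 log2 units, and coloured dots for squares that hold called regions. The 3 ATAC calls lie in the lower left corner, the H3K27ac calls fill the 2 corners where both replicates have the same sign, and 5 ATAC and 8 H3K27ac regions lie outside the axes, 3 of the latter called.

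The 10 regions with the smallest p among those with higher H3K27ac were 1777 to 24997 bp long and had log2 differences of 0.88 to 2.01. The longest of them, on chromosome 13 (117081229 to 117106225), carried a normalised signal of 1387 and 1440 in the GFP-positive libraries and 634 and 775 in the GFP-negative ones. Its GFP-positive values were nearly equal and lay far above both others, including in the weakly enriched replicate. The difference was 2.01-fold (log2 1.01, SE 0.10, adjusted p = 3.14e-05). A region of 9378 bp further along the same chromosome (117492265 to 117501642) carried 415 and 542 against 196 and 325. Here, too, the groups did not overlap (log2 0.91, SE 0.14, adjusted p = 0.00153).

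On the X chromosome, the region 138155019 to 138161585 carried 250 and 414 in GFP-positive against 100 and 183 in GFP-negative libraries. Each replicate 1 value was lower than its replicate 2 counterpart in the same sort, and the sort difference was nearly the same in both (log2 1.31 and 1.17, adjusted p = 0.000386). The largest fold among the 10 was in a weak region of 1777 bp on chromosome 18 (40452564 to 40454340), with 43.2 and 68.0 against 7.4 and 21.4. That makes 4.03-fold after 1 was added to each value before taking logs, a step that shrinks the folds of weak regions. A second short region, on chromosome 4 (101388996 to 101390831), carried 93.6 and 131 against 30.2 and 46.6, 2.90-fold.

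The other 5 were on chromosomes 3, 6, 8 and 9. A long region on chromosome 6 (5349686 to 5366051) carried 561 and 630 in GFP-positive and 308 and 336 in GFP-negative nuclei. On chromosome 3, the region 118896242 to 118902111 carried 130 and 154 against 45.3 and 54.4, and its replicates gave almost equal differences (log2 1.50 and 1.48). A further region of chromosome 3 (9344486 to 9349029) was 2.25-fold higher. A region on chromosome 8 (107151853 to 107159390) was 1.93-fold and one on chromosome 9 (62101674 to 62106472) was 2.35-fold higher, both without overlap of the sorts. Of all 10, only the region on chromosome 8 lost its call when a single Fed library was left out (adjusted p = 0.0530 without GFP-positive replicate 1).

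The 10 regions with the smallest p among those with lower H3K27ac were 3642 to 16607 bp long and had log2 differences of −2.54 to −1.36. The region that led by p, on chromosome 9 (69608766 to 69619485), carried 71.4 and 82.7 in GFP-positive and 207 and 269 in GFP-negative libraries. The groups lay far apart, with the replicates giving −1.52 and −1.69 (SE 0.19, adjusted p = 0.000386). The largest fold was on chromosome 5 (138396767 to 138412287), where 66.3 and 42.9 stood against 356 and 280. That is 5.82-fold lower (log2 −2.54, SE 0.34, adjusted p = 0.000920).

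A pair of neighbouring regions on chromosome 9 was lower together. The first (109434205 to 109443304) carried 28.4 and 20.9 against 156 and 115. The second (109445990 to 109457613) carried 53.0 and 33.6 against 269.5 and 143. In both, every GFP-positive value was under every GFP-negative one, and the log2 differences were −2.41 and −2.19. On chromosome 7 (97480544 to 97484185), signal was 15.5 and 13.2 against 84.8 and 79.9, 5.44-fold lower. On chromosome 2 (44968746 to 44973196), it was 34.0 and 46.9 against 129 and 246, 4.37-fold lower. Both of these had wide gaps between the sorts. The region 58507359 to 58514972 of chromosome 4 was 3.42-fold lower and the region 82666719 to 82683325 of chromosome 11 was 2.95-fold lower. The other two, at 91564814 to 91570075 of chromosome 8 and 50609414 to 50620522 of chromosome 10, were 2.97 and 2.56-fold lower.

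**Figure D2:**
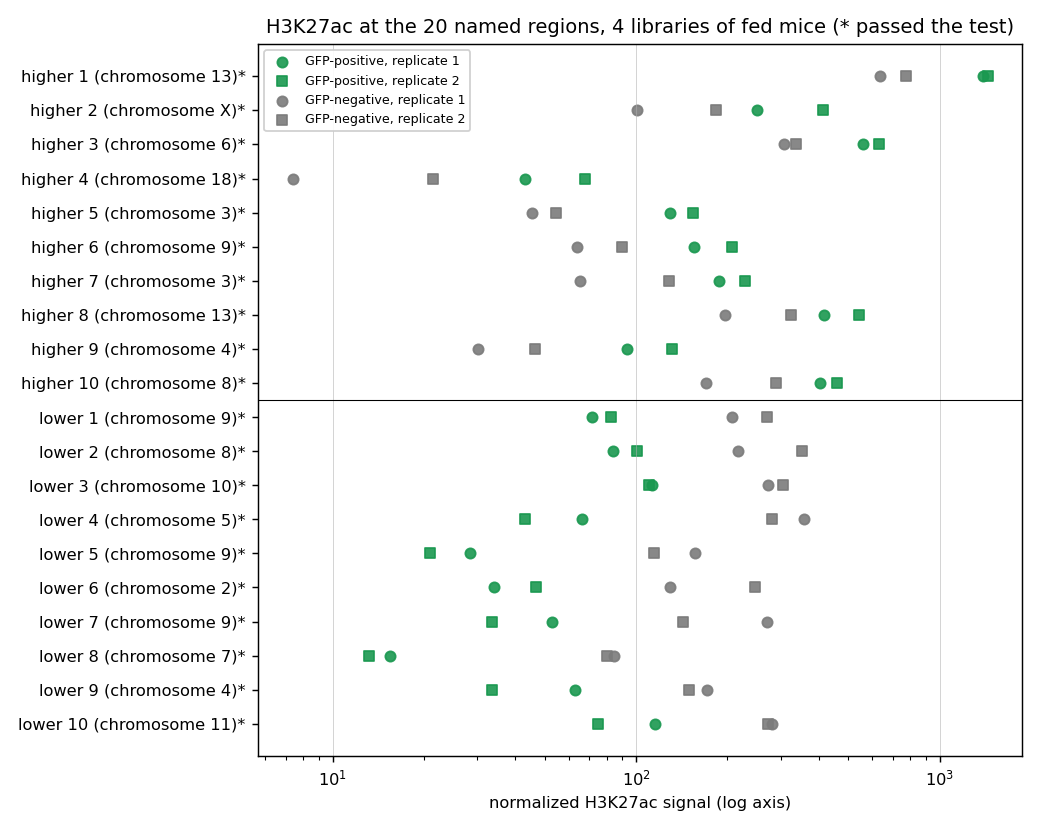
Normalised H3K27ac signal (horizontal, log axis) in each of the 4 Fed libraries at the 10 higher and 10 lower regions with the smallest p, green for GFP-positive, grey for GFP-negative, circles for replicate 1 and squares for replicate 2. The sorts do not overlap at any of the 20 regions, and the region on chromosome 13 at the top has the strongest signal.

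Open chromatin differed at only 3 of 31179 ATAC regions (0.00962%), all lower in GFP-positive nuclei, and 0 passed as higher (0%) in this fit. Other fits of the same values also called higher regions, 36 of 113 calls with only the 4 Fed libraries and 4 of 24 with library weights. The limma fit over all 16 libraries gave 2534 regions (8.13%) with an unadjusted p under 0.05. The region on chromosome 18 (68356514 to 68357065), 552 bp long, carried 3.0 and 2.6 in GFP-positive against 31.2 and 46.3 in GFP-negative libraries. Both GFP-positive libraries were close to 0 there (log2 −3.36, SE 0.52, adjusted p = 0.0208). On chromosome 14 (26559547 to 26561083), signal was 7.7 and 5.4 against 29.6 and 39.8 (log2 −2.24, SE 0.39, adjusted p = 0.0398). On chromosome 2 (116800429 to 116802029), it was 31.1 and 22.3 against 61.8 and 88.5 (log2 −1.45, SE 0.25, adjusted p = 0.0398). The groups were clearly apart at all 3, with the GFP-negative replicates differing by more signal units than the GFP-positive ones.

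These 3 calls rest on every Fed library. Without GFP-negative replicate 2 or GFP-positive replicate 2 none of them passed, and without GFP-negative replicate 1 or GFP-positive replicate 1 only the region on chromosome 2 did (adjusted p = 0.0317 and 0.0351).

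The 95% interval of a log2 difference reached 0.71 to either side at the median ATAC region, and larger differences than that also missed the threshold. The smallest difference called was −1.45, while the region on chromosome 4 at 101358806 to 101359463 missed it with a log2 difference of 1.68 (adjusted p = 0.0785). Both GFP-positive libraries were above both GFP-negative ones at 6604 regions (21.2%) and below at 5496 (17.6%). A gap of at least 2-fold between the sorts was seen at 102 (0.327%) and 157 (0.504%) regions respectively. Replicate by replicate, 9191 regions (29.5%) were higher in both and 8159 (26.2%) lower in both, and 193 (0.619%) and 267 (0.856%) differed at least 2-fold in both. Of the 963 regions at least 2-fold lower in replicate 1, 71.0% were lower in replicate 2 as well, with a median of −0.45. Of the 1058 regions at least 2-fold higher in replicate 1, 72.6% were higher in replicate 2, with a median of 0.37. For H3K27ac, the replicate 2 medians at regions chosen the same way in replicate 1 were −0.46 (4975 lower regions) and 0.20 (4370 higher regions), both much smaller than in the replicate that chose them. The sign was kept at 74.8% and 66.3% of these. Of H3K27ac regions chosen in replicate 2, 82.9% of 4712 lower and 59.1% of 3123 higher ones kept it in replicate 1. Over all tested H3K27ac regions, 50.5% were lower and 49.2% higher in replicate 1, and 49.2% and 50.5% in replicate 2.

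Among ATAC regions with a mean Fed signal of 50 or more, those with the largest difference in both replicates are described without a call. On chromosome 4 (152070603 to 152072486), GFP-positive libraries carried 73.9 and 76.9 and GFP-negative ones 36.7 and 37.6, and on the X chromosome (138158230 to 138160730), 70.2 and 68.8 stood against 35.9 and 34.3. Replicates agreed closely at both, with about 2-fold gaps (2.00 and 1.95-fold), and the adjusted p values were 0.118 and 0.174. The next 8 higher ones had log2 differences of 0.56 to 0.80. Of the 7 lower ones that follow the 3 calls (log2 −0.84 to −0.57), a region on chromosome 16 (25058513 to 25060010) led with 33.0 and 40.2 against 62.6 and 69.6.

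**Figure D3:**
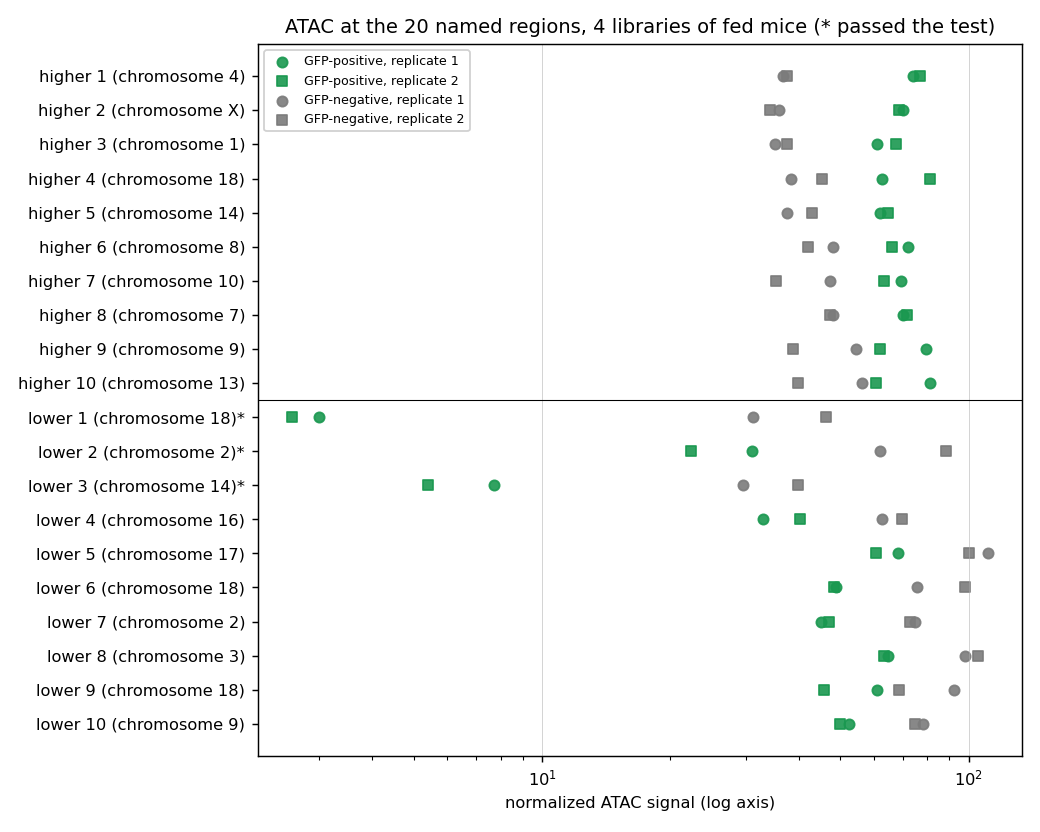
Normalised ATAC signal (horizontal, log axis) in the 4 Fed libraries at 10 higher and 10 lower regions, green for GFP-positive, grey for GFP-negative, circles for replicate 1, squares for replicate 2, and a star for regions that passed the test. The 3 starred regions have the widest gaps, and the uncalled regions differ by at most 2.00-fold.

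The 2 assays mostly leaned the same way where they overlapped by 1 bp or more. Among 1186 ATAC regions over H3K27ac called higher, both GFP-positive libraries were above both GFP-negative ones at 428 (36.1%) and below at 96 (8.09%). Among 740 over H3K27ac called lower, they were below at 326 (44.1%) and above at 61 (8.24%). The shares over all tested ATAC regions were 21.2% above and 17.6% below. Median ATAC differences were 0.21 over the higher and −0.29 over the lower H3K27ac regions. The acetylation differences there were chosen by the call, so the sizes in the 2 assays cannot be compared. Starting from ATAC, 39 of 129 H3K27ac regions (30.2%) under the 157 ATAC regions with a 2-fold lower gap were called lower and 0 higher. Under the 102 with a 2-fold higher gap, 7 of 100 (7%) were called higher and 0 lower. Over all H3K27ac regions under tested ATAC regions, 3.62% were called higher and 1.94% lower. Replicate by replicate, H3K27ac was higher at 64 (replicate 1) and 87 (replicate 2) of those 100, with medians of 0.11 and 0.46. It was higher at 30 and 24 of those 129 (medians −0.34 and −0.60). Over all 23228 such regions it was higher at 15780 and 11887 (medians 0.19 and 0.01). At the higher gap, replicate 1 thus showed no lean beyond that of all such regions.

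A single place passed in both assays. Around the ATAC region on chromosome 14, the 10979 bp acetylated region 26553721 to 26564699 carried 184 and 92.4 in GFP-positive and 321 and 277 in GFP-negative libraries (log2 −1.19, adjusted p = 0.0194). Around the called ATAC region on chromosome 18, H3K27ac was 97.1 and 117 against 84.8 and 266, so the groups overlapped and replicate 1 leaned the other way. Around the one on chromosome 2, it was 290 and 367 against 256 and 374, with no separation of the sorts.

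Several places leaned together in both assays with only the acetylation passing. On the X chromosome, the acetylated region described above holds the ATAC region with 70.2 and 68.8 against 35.9 and 34.3. The long region on chromosome 13 holds an ATAC region (117083547 to 117084334) with 28.3 and 18.1 against 8.8 and 4.9. On chromosome 4, ATAC signal at 101358806 to 101359463 was 31.1 and 41.6 against 10.3 and 10.8, inside a 20171 bp region of higher H3K27ac (397 and 314 against 292.5 and 132). In each of these the GFP-positive values were above both others in both assays.

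Lower signal in both assays was seen on chromosome 8 (91564814 to 91570075), with H3K27ac of 84.2 and 101 against 217 and 351.5. The ATAC region inside it (91566484 to 91567905) carried 10.5 and 6.9 against 34.3 and 40.9 (adjusted p = 0.0839). On chromosome 2 (31817940 to 31818594), ATAC signal was 4.9 and 2.6 against 18.6 and 21.1, within acetylation of 87.0 and 54.0 against 201 and 168.

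Of the 10 named lower H3K27ac regions, 7 overlapped no tested ATAC region, close to the share over all tested H3K27ac regions (75010 of 98238, 76.4%). At the other 3 both GFP-positive ATAC libraries were below both GFP-negative ones, as at 17.6% of all tested ATAC regions. Of the 10 named higher regions, 8 overlapped 12 tested ATAC regions, of which 8 had both GFP-positive libraries above both GFP-negative ones, as did 21.2% of all tested ATAC regions. Counting every ATAC region of the table, tested or not, H3K27ac regions that overlapped one were called higher in 3.18% and lower in 2.58% of 29941 cases. Those without one were called higher in 0.511% and lower in 2.22% of 68297.

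The share of regions called was highest among the longest of the 3 length classes. Among 9296 regions of 10 kb or more, 2.83% were called higher and 6.86% lower. The shares were 1.61% and 2.67% among 52211 regions from 2 kb to under 10 kb, and 0.536% and 0.689% among 36731 shorter ones. Long regions also carry more signal (median 307 against 16.9 in the short ones), and their intervals were narrower (a median of 0.29 to either side against 0.82). The part of signal level in these shares was not tested. Regions that touched no neighbour held 948 lower and 182 higher calls among 26586 (3.57% and 0.685%). Those in contact with a neighbour held 1339 lower and 1120 higher calls among 71652 (1.87% and 1.56%). Over all tested regions the shares were 2.33% and 1.33%. The median difference of regions without contact was −0.13 in replicate 1 and 0.03 in replicate 2, so only the weakly enriched replicate leaned lower. The difference between the 2 classes was not tested.

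The H3K27ac sort difference of replicate 1 moved with signal density. Both libraries of that replicate are weakly enriched, and the part of enrichment in this was not tested. When regions were ordered into 10 classes by signal per kb, the median replicate 1 difference in H3K27ac went from −0.12 in the sparsest class to 0.34 in the densest. Replicate 2 showed no such course, with −0.02 and −0.04 at the ends. Higher calls were most frequent in the 2 densest classes (457 and 371, or 4.65% and 3.78%), and lower calls in the middle of the range (353, or 3.59%, in class 5). After each library was centred within 100 density classes, an alternative chosen after seeing the data, 1266 regions passed as higher and 2828 as lower, and 2977 of the 3589 calls were among them. In ATAC, replicate 1 went from −0.18 in the sparsest class to 0.10 in class 6 and −0.01 in the densest. Replicate 2 stayed between 0.11 and 0.13 over the 4 sparsest classes and then went down to −0.20 in the densest.

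**Figure D4:**
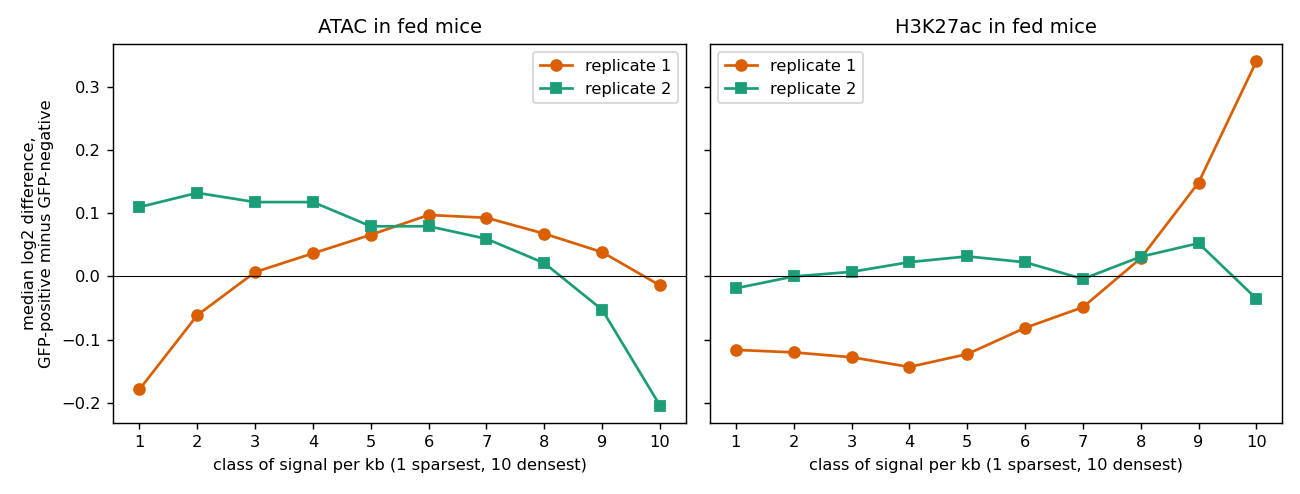
Median log2 difference between GFP-positive and GFP-negative nuclei (vertical) in 10 classes of tested regions by signal per kb (horizontal), with circles for replicate 1 and squares for replicate 2. In H3K27ac the line of replicate 1 climbs from −0.12 to 0.34 while that of replicate 2 stays near 0.

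Many lower calls had other lower calls beside them. Joined across gaps of up to 25000 bp, the 2287 lower calls formed 1671 groups, of which 1296 were single calls and 127 held 3 or more. The 1302 higher calls formed 1192 groups, 1098 of them single calls and 13 with 3 or more. The lower list is the longer one, and 71652 of the 98238 tested regions touch a neighbour. How much grouping would follow from list length and contact alone was not tested. The groups named next were chosen after their values were seen. The largest, on chromosome 17 (10515482 to 10726912), spans 211431 bp and was called lower at 13 of its 16 tested regions. Of these 13, 11 touch a neighbouring region. Summed over the called regions, its signal was 1686 and 1017 in GFP-positive against 4253 and 3423 in GFP-negative libraries. A group on chromosome 4 (97441865 to 97615985) had 11 of 15 regions called, with 882 and 707 against 2081 and 2010. Both groups had 0 regions called higher, and their 2 ATAC regions each included 1 with both GFP-positive libraries below. The largest group of higher calls, on chromosome 5 (129770944 to 129828036), had 6 of 11 regions called, with 862 and 687 against 506 and 420. Of its 2 ATAC regions, 1 had both GFP-positive libraries above and 1 had both below.

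The sort differences of fed mice were mostly shared by the other treatments, whose libraries had no part in the Fed contrast itself but share its estimate of the spread. At the 2287 regions with lower H3K27ac, signal was lower in 84.5% to 98.2% of regions in each of the 6 other pairs of libraries. At the 1302 higher regions, it was higher in 82.9% to 97.0%. The lowest shares of both lists were in Lep2 replicate 1, which is weakly enriched, where the medians were −0.34 and 0.34. In Fast, where neither replicate is weakly enriched, the medians were −1.39 and −1.16 for the lower list and 0.56 and 0.52 for the higher list. Over all tested regions, 47.8% to 49.3% were lower and 50.3% to 51.9% higher in those pairs. All 20 named H3K27ac regions and the 3 ATAC calls had the sign of Fed in all 6 pairs. Among the named ATAC regions that were not called, 3 of the 10 higher and 5 of the 7 lower ones did. The share over all tested regions is not given here.

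ATAC regions with a 2-fold gap in Fed followed the same way, with smaller medians. The 157 lower ones were lower in 86.6% to 96.8% of regions per pair, and the 102 higher ones were higher in 62.7% to 94.1%. The chromosome 18 region called lower, for example, carried 2.1 and 8.4 in GFP-positive against 20.0 and 43.3 in GFP-negative libraries of fasted mice. The medians of both ATAC lists lay closer to 0 in the other treatments than in Fed, where the regions were chosen. The difference between the Fed sort effect and the mean of the other 3 was tested at every region by the fit with group means. Limma called 0 in either assay (0%), with 873 ATAC (2.8%) and 1928 H3K27ac (1.96%) regions at an unadjusted p under 0.05. For H3K27ac, that fit also called 0 for the Fed sort difference itself, so its 0 here does not show a shared difference. With the weakly enriched libraries as a term, limma again called 0, and 4751 H3K27ac regions had an unadjusted p under 0.05.

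**Figure D5:**
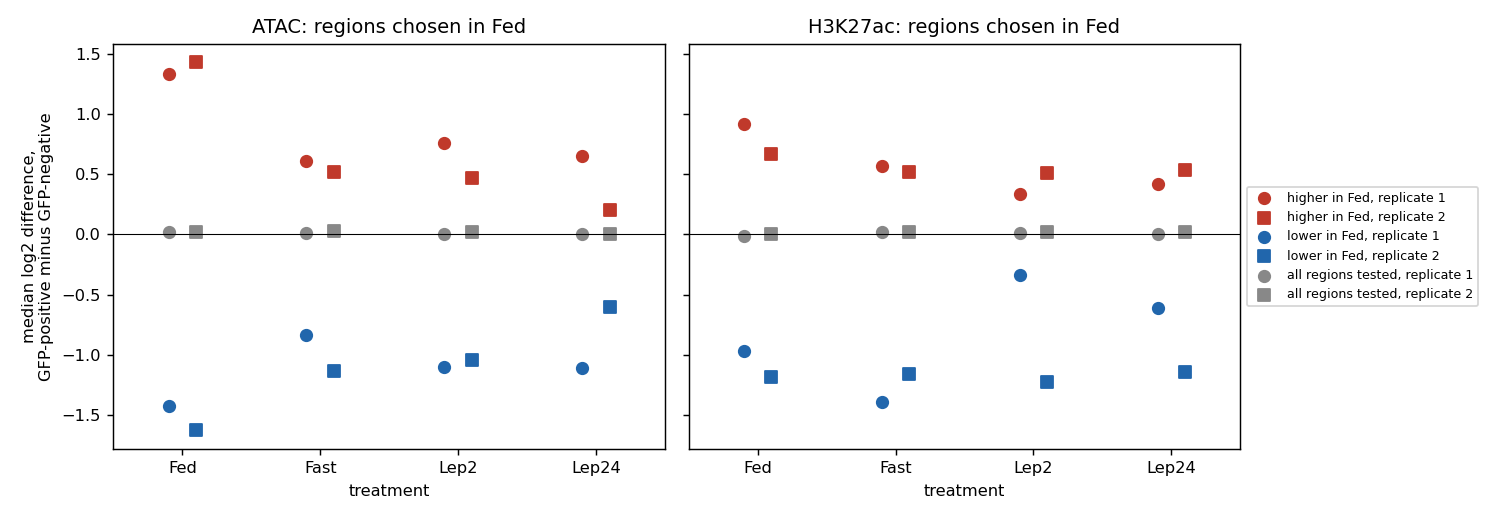
Median log2 difference between GFP-positive and GFP-negative nuclei (vertical) by treatment (horizontal), at regions chosen in Fed as higher (red) or lower (blue) and at all tested regions (grey), with circles for replicate 1 and squares for replicate 2. The ATAC lists are those with a 2-fold gap and the H3K27ac lists are the called regions, and the red and blue medians keep the sign of Fed in every pair while the grey ones stay near 0.

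The authors' deposited table gives its own sort comparison, and which libraries went into it is not stated in the labels or headers. Among the tested regions, it lists 13388 H3K27ac regions at FDR under 0.05. Of these, 3285 (24.5%) were called here with the same sign, which is 91.5% of the 3589. In ATAC the authors' deposited table lists 131 regions at that FDR, which include the 3 called here (2.29% of 131, 100% of 3).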

How the data were processed

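The authors deposited, per the file headers, normalised signal for every region and library for each assay, with their own log2 fold changes, p-values and FDR for comparisons of theirs. The normalisation, and the aligner and peak caller of each assay, are not given in the sources used here. Per the submitters' processing notes the genome build was mm9, and the tools listed for the whole series were MACS2, DESeq2 1.16.1, HTSeq 0.6.0, Bowtie2 2.2.6, Bowtie 1.2, STAR 2.5.2b and CASAVA 1.8. The 32 further per-sample columns (stabilised values) were not used. RNA and input samples were not analysed here. Whole reads could not be recovered, so no count model was run.

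Signal was taken to log2(signal + 1). For each assay, limma 3.58.1 in R 4.3.3 fitted a mean for each of the 8 groups over 16 libraries, with an intensity trend. The contrast was Fed GFP-positive minus Fed GFP-negative, two-sided, adjusted by Benjamini-Hochberg over all regions tested, with a call at an adjusted p under 0.05. For H3K27ac, calls come from a second fit with membership of the 6 weakly enriched libraries as a term. Fit scripts were tested on simulated data. Overlaps of 1 bp used GenomicRanges 1.54.1, data were read with R package data.table, version 1.17.8, and plots were drawn with matplotlib 3.10.9. Coordinates are mm9 counted from 1, with each deposited start raised by 1.

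Named regions are, per assay and direction, the 10 with the smallest p among calls whose Fed groups lay apart (ATAC) or whose replicates had the same sign (H3K27ac). Where fewer passed, the list was filled by the smaller of the 2 replicate differences at a mean Fed signal of 50 or more. Lists and members were chosen with earlier results of these data known. The limma fits that gave the calls did not treat replicate numbers as pairs. Differences given per replicate, and the same-sign rule for named H3K27ac regions, subtract same-numbered libraries. The alternatives were other scaling, pseudocounts of 0.1 and 5, other filters, library weights, an adjusted p of 0.01, replicate blocks, only the Fed libraries, and each Fed library left out.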

Additional observations from a re-analysis of the deposited data

Results flagged for a closer look

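At the uncalled ATAC region on chromosome 17 (45869998 to 45874566), both GFP-positive libraries of fed mice were below both GFP-negative ones (68.4 and 60.7 against 110.8 and 99.9, log2 −0.69 and −0.71), while both Lep24 pairs leaned the other way, with a mean log2 difference of 0.0919 (0.07 and 0.11). The difference between Fed and Lep24 alone was not tested. Against the mean of the other 3 treatments, the limma contrast gave −0.67 with an unadjusted p of 0.00819, which did not pass after adjustment over all ATAC regions (adjusted p = 0.9999).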

How the results depend on the processing

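No named region changed the sign of its difference under the alternatives run, but the balance of higher and lower calls turned in some. Without GFP-negative replicate 1 the ATAC calls were 4 higher and 1 lower. Without GFP-negative replicate 2 the H3K27ac calls were 8 higher and 0 lower with group means, and 1674 higher and 775 lower with the term. The 3 ATAC calls became 0 with a pseudocount of 0.1, with a filter at a mean of 50 and at an adjusted p of 0.01. They became 14 with no filter (3 higher, and none of the 3 calls among them), 24 with library weights (4 higher), 113 with only the 4 Fed libraries in the fit (36 higher), and 5 when centred by signal density. With single Fed libraries left out, the count was 0 to 6. For H3K27ac with group means, the count of 0 held under the other scaling, filter and pseudocount settings, was 3 when centred by density, and was 0 to 8 with single libraries left out. With the weakly enriched libraries as a term, 3589 became 785 at an adjusted p of 0.01, 6645 without those libraries, and 626 to 2449 with single Fed libraries left out. Leaving out single libraries gave 0 to 1 calls for the difference between Fed and the other treatments in ATAC.

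Same-numbered libraries of the 2 sorts deviated together little in ATAC (correlation of deviations 0.06 to 0.18). In H3K27ac the correlation was 0.54 in Fed, 0.56 in Lep2 and 0.44 in Lep24, and 0.01 in Fast. Both replicate 1 libraries are weakly enriched in Fed, Lep2 and Lep24, and neither is in Fast. The labels do not say whether a shared number means a shared pool. With the replicate number as a block, the ATAC calls were 100 over 16 libraries (26 higher) and 193 with only the Fed libraries (68 higher), and 102 (27 higher) with each pair of libraries as a block, an alternative added after seeing the data. For H3K27ac the replicate block over 16 libraries gave 0 calls, also in place of the term, where all 20 named regions lost theirs. It gave 3547 with only the 4 Fed libraries, against 0 for these libraries without a block. Few residual degrees of freedom set the spread in that blocked fit, whose smallest limma adjusted p was 4.5e-248. Its count is therefore no separate support for the calls. Pairs of libraries as blocks gave 2041.

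The share of ATAC regions whose Fed groups lay apart the same way over H3K27ac called higher and lower was 45.8% and 58.3% at an adjusted p of 0.01, 41.1% and 33.4% centred by density, and 44.3% and 36.9% without the weakly enriched libraries. With single libraries left out, it was 28.3% to 55.1% and 48.3% to 58.7%. Library depth is not given, and the steps of the values differ between libraries. With 2 libraries a side, the 95% interval at the median region reached 0.71 log2 units to either side in ATAC. In H3K27ac, with the term, it reached 0.59.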

Other observations

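On the X chromosome, 34 of 1422 tested H3K27ac regions were called higher in GFP-positive nuclei of fed mice (2.39%) and 19 lower (1.34%), the reverse of the order over all chromosomes. The median log2 difference over these regions was 0.16 in replicate 1 and 0.12 in replicate 2, against −0.01 and 0.01 over all tested regions. The X chromosome held 0.845% and 0.703% of the signal in the GFP-positive and GFP-negative libraries of replicate 1, and 1.29% and 1.19% in those of replicate 2.

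Of 1269 tested ATAC regions that overlapped no H3K27ac region, both GFP-positive libraries were below both GFP-negative ones at 298 (23.5%) and above at 239 (18.8%), against 17.6% and 21.2% of all tested ATAC regions, and 0 were called in either direction. With a 2-fold gap, 31 were lower and 6 higher, against 157 and 102 of all 31179 (0.504% and 0.327%).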
